A study of Mus musculus with 12 samples.

Results

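Eµ-Myc lymphoma cells that had grown in mouse lymph nodes in a model of blood-borne spread were compared with cultured Eµ-Myc lymphoma cells. The comparison rests on 8 of the 12 libraries of the study, chosen by their titles: 4 of cultured cells, called culture here, and 4 titled as the hematogenous model (day 18), called hematogenous, whose lymphoma cells were sorted out of a lymph node. The 4 other libraries, called lymphatic, come from the lymphatic model at day 11, and they enter the shared estimate of spread and a closing comparison. All 12 libraries carry the label E_mu-Myc lymphoma with B cell as the cell type, and the hosts were C57BL/6J mice. Poly(A) RNA was sequenced in bulk. Lymph node also stands as tissue in the labels of the culture libraries, which were taken as cultured cells by their titles. Neither the sort gate, the age of the mice, nor the number of lymphoma clones is given in the sources used here, and nothing says whether replicates came from separate animals or cultures, so p-values measure the spread between these libraries, which may be technical. Culture and day 18 lymph node differ in place, time and passage through a host together, and these cannot be told apart.

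In Eµ-Myc mice the Myc gene is driven by the enhancer of the immunoglobulin heavy chain locus, so B lineage cells carry high Myc and form lymphomas. B cells present antigen on MHC class II, whose genes share the coactivator Ciita, and they enter and leave lymph nodes through chemokine and sphingosine phosphate receptors. Cholesterol and fatty acid enzymes are under the SREBP transcription factors, which are held back when sterol is plentiful, and many genes of glycolysis are targets of the factor HIF1A, which is stable when oxygen is scarce. Interferons act on nearly all cells and raise a shared set of antiviral genes.

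Counts assigned to genes ran from 5655422 to 12738568 per culture library and from 5286775 to 12444690 per hematogenous library. Spearman correlations between libraries of different groups were 0.943 to 0.954. Within a group they lay between 0.991 and 0.994 for culture and between 0.986 and 0.993 for hematogenous libraries. Heavy chain V counts outside Ighv3-6 made up 0 to 0.0658% of all heavy chain V counts in culture and 0.284 to 1.75% in hematogenous libraries. Cd79a, a signalling chain of the B cell receptor and a defining B cell gene, stood at 446 ± 39.9 CPM (counts scaled to a shared library depth, mean ± SD of 4 libraries) in culture and 476 ± 26.3 CPM in hematogenous libraries (adjusted p = 0.713). Markers of other cell types were low. The 23 T cell markers, of which 19 were tested, summed to 7.74 to 13.4 CPM in culture and 43.8 to 61.6 CPM in hematogenous libraries, and 14 were called higher and 0 lower (2 higher with the 8 libraries alone, where fewer markers were tested). Most of the sum was Lck (mean 6.02 to 30.4 CPM), a kinase also found in some B cells. The T cell receptor constant gene Trbc2 had 0 counts in culture and 1.36, 2.19, 0.978 and 0.1899 CPM in hematogenous 1 to 4. The 19 markers of macrophages and monocytes summed to 30.9 to 41.7 CPM in culture and 30.8 to 38.3 CPM in hematogenous libraries, with 5 of 9 tested members higher and 3 lower. Dendritic cell markers summed to 34.05 to 41.8 CPM in culture and 24.1 to 29.9 CPM in hematogenous libraries, and endothelial markers, mostly Pecam1, to 78.2 to 81.8 and 140.1 to 169 CPM. Lyz2, the lysozyme of myeloid cells, had 0 counts in the 4 culture libraries and 12.8, 13.2, 13.99 and 7.03 CPM in hematogenous 1 to 4, which is at least 152-fold higher against a floor of 3 counts over the culture group. Neutrophil markers summed to at most 3.53 CPM and fibroblast markers to at most 0.9497 CPM in a hematogenous library. In bulk RNA a change in the share of a cell type and a change in RNA per cell cannot be told apart.

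Lymph node cells of the blood route differed from culture at 3760 genes. Of 13535 genes tested, 3760 (27.8%) had an adjusted p under 0.05 and are called here: 1880 (13.9%) were higher in hematogenous libraries and 1880 (13.9%) lower. Each list count against culture below is to be read beside these shares of all genes. A change of at least 2-fold was reached by 833 of the genes called higher (6.15% of all tested) and 930 of those called lower (6.87%). The 4 libraries of each group did not overlap for 43.6% of all tested genes. The median log2 fold change over all tested genes was −0.000748. The balance of directions depends on the normalization and is not a result by itself. Upper quartile factors gave 2053 genes higher and 1749 lower, and no composition factors 1756 and 1956. All fold changes are hematogenous over culture, as log2 ± SE, from edgeR's quasi-likelihood test with Benjamini-Hochberg adjustment over all tested genes. The count changed with the libraries fitted, which also changed the genes that passed the filter: the 8 libraries alone gave 6344 called genes of 12572 tested, and a fit without lymphatic replicate 4, which held 15.3% of its counts in ribosomal protein genes, gave 5930 of 13768. In the latter fit all 3760 genes kept their call. The 8-library fit called 3150 genes higher and 3194 lower, and the fit without lymphatic replicate 4 called 2995 and 2935. List counts given below for these fits are to be read beside those larger backgrounds. Where a gene list is said below to have 0 calls in a direction against culture, DESeq2 and limma-voom gave 0 as well, and an unadjusted p under 0.05 gave 0 too, except for 3 lower genes of fatty acid oxidation and 1 higher gene of oxidative phosphorylation.

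**Figure D1:**
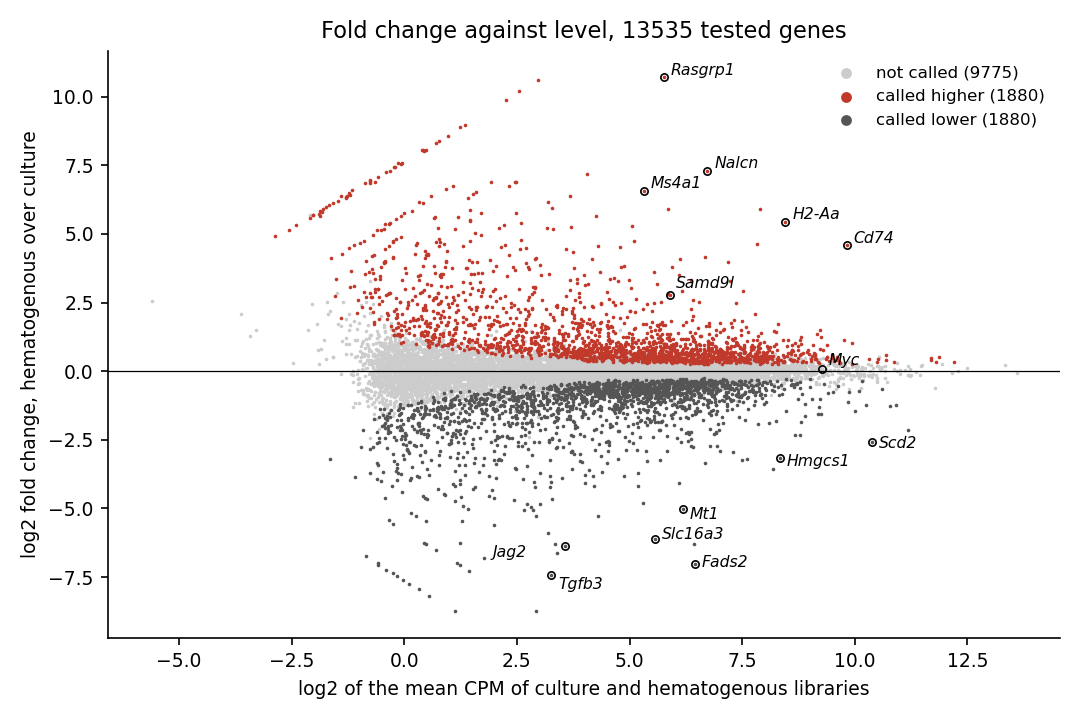
Each dot is 1 of the 13535 tested genes, placed by the log2 of its mean CPM over culture and hematogenous libraries (x axis) and its log2 fold change, hematogenous over culture (y axis). The 1880 genes called higher are red and the 1880 called lower dark grey; genes along the straight diagonals have few or no counts in the lower group, and their fitted fold changes there are not bounds. Myc lies near 0, whereas Rasgrp1, Nalcn, Ms4a1 and H2-Aa lie far above and Fads2, Slc16a3 and Mt1 far below.

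Genes of antigen presentation through MHC class II were higher in the lymph node cells. Of 16 genes listed for this pathway 15 were tested, and 11 were called higher and 0 lower, with a median log2 fold change of 3.84. The invariant chain Cd74, which guides class II molecules to the compartment where they meet peptide, stood at 73.97, 78.7, 69.97 and 67.8 CPM in culture 1 to 4 and at 1749, 1908, 1782 and 1498 CPM in hematogenous 1 to 4. The lowest hematogenous library was far above the highest culture library (log2 4.58 ± 0.28, adjusted p = 5.66e-08). H2-Aa, an alpha chain of class II, read 18.8, 13.7, 14.6 and 16.4 CPM in culture and 677, 713, 738 and 621 CPM in hematogenous libraries (log2 5.43 ± 0.25, adjusted p = 4.69e-09). Its partner H2-Ab1 went from a mean of 17.4 to 439 CPM and H2-Eb1 from 7.71 to 469 CPM. The groups did not overlap for any of these genes. The peptide editors rose too: H2-DMa from 1.56 to 64.5 CPM, H2-DMb1 from 3.88 to 54.8 CPM and H2-DMb2 from 1.84 to 114 CPM. H2-Oa, part of the inhibitor of that editor, went from 0.444 to 11.6 CPM, whereas its partner H2-Ob was already at 156 ± 7.32 CPM in culture and reached 208 ± 36.5 CPM (log2 0.42 ± 0.13, adjusted p = 0.0251). Ciita, the coactivator that class II genes need, read 9.02, 11.1, 12.1 and 11.8 CPM in culture and 132, 137, 131 and 102 CPM in hematogenous libraries (log2 3.51 ± 0.22, adjusted p = 6.56e-08). Hematogenous 4 was the lowest of its group for Cd74, H2-Aa and Ciita and still lay above all culture libraries. The DNA-binding subunits that recruit Ciita were not called: Rfx5 read 50.2 CPM in culture and 47.6 in hematogenous libraries, Rfxap 30.1 and 29.6, and Rfxank 9.68 and 11.8 (adjusted p from 0.208 to 0.943). Dendritic cells, macrophages and host B cells also carry class II. Heavy chain V counts outside Ighv3-6 were 0 to 0.0658% in culture and 0.284 to 1.75% in hematogenous libraries. Kappa V counts outside Igkv3-7 were 1.09 to 1.38% and 1.98 to 2.43% of all kappa V counts. The sum of the dendritic cell markers, given above, was lower in every hematogenous library than in culture. However, only 3 of these 12 markers were tested, with 1 called lower and 2 not called. Over all 12 the median log2 fold change was 0.043 on the log2(CPM + 1) scale, so the lower sum is not shared by most markers. The sum of the macrophage markers overlapped between the groups, but it includes Fcgr3, which stood at 15.8 CPM in culture and 0.485 CPM in hematogenous libraries, and 5 of the 9 tested markers, Lyz2 among them, were called higher. The part of such cells in the class II rise was not tested.

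The X box bound by that RFX complex was searched in the promoters of the class II list as CCNAG, any 2 bases and ACNGATG, on both strands. It was found in 1 of the 11 members with a promoter in the RefSeq table (9.09%), against 0.0652% of the 9198 tested genes with one, over windows from 250 bases before to 50 after a gene's start. The share rests on 1 gene, and the list holds genes known to share a regulator, so it can follow from how the list was chosen. H2-DMb1 was the member with a match. Its 250 bases before the start (chr17:34152941-34153190, plus strand, GRCm38.p6) are printed 5′ to 3′ with the match in capitals, because the gene's rise is part of the class II group; a match is a description of the letters and not a measured binding site.
H2-DMb1: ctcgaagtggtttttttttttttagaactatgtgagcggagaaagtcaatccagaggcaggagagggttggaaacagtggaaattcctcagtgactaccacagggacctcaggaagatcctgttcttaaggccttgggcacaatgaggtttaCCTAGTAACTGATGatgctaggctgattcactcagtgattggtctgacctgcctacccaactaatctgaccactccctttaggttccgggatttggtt

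The called MHC class I genes rose by less. Of 24 genes on that list 21 were tested, 10 were called higher and 0 lower, and the median log2 fold change was 0.503. The heavy chains H2-K1 and H2-D1 went from 69.3 to 235 CPM (log2 1.76 ± 0.28) and from 68.8 to 252 CPM (log2 1.87 ± 0.28), though near-identical class I copies can share or lose reads and make both uncertain. H2-T23, a nonclassical class I gene, went from 19.2 to 63.2 CPM (log2 1.72 ± 0.32). The peptide pump subunit Tap1 read 23.1 ± 1.26 CPM in culture and 61.2 ± 5.79 CPM in hematogenous libraries (log2 1.404 ± 0.12, adjusted p = 1.35e-06), and the immunoproteasome subunit Psmb9 17.4 ± 2.86 and 46.2 ± 3.01 CPM (log2 1.41 ± 0.28, adjusted p = 0.00184). B2m, the shared light chain, missed the threshold at 287 and 406 CPM (log2 0.503 ± 0.23, adjusted p = 0.123).

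Genes of mature B cells were mostly higher as well. Host B cells also express such genes, and their part in these rises was not tested. Of 39 genes for the B cell receptor and mature B cell surface, all tested, 24 were called higher and 2 lower, with a median of 0.68. Ms4a1, which encodes CD20, was close to absent from culture at 0.856, 0.521, 0.967 and 0.807 CPM and reached 81.2, 68.3, 95.004 and 70.8 CPM in hematogenous 1 to 4. That is a rise of log2 6.58 ± 0.29 (adjusted p = 3.15e-09) with all hematogenous libraries above all culture libraries. Ighd, the constant region of surface IgD, read 309.5, 300.2, 340.2 and 309 CPM in culture and 951, 782, 844 and 961 CPM in hematogenous libraries (log2 1.49 ± 0.11, adjusted p = 3.15e-07). The small surface protein Cd52 went from 13.97 to 79.3 CPM (log2 2.497 ± 0.31), the inhibitory lectin Siglecg from 69.8 to 204 CPM (log2 1.54 ± 0.10) and the adaptor Bank1 from 70.9 to 200.5 CPM (log2 1.499 ± 0.12). The 2 genes called lower, named after their values were seen, were Cd53 (328 and 237 CPM, log2 −0.47 ± 0.12) and Cd72 (425 and 337 CPM, log2 −0.34 ± 0.12). The lower count was 7 with the 8 libraries alone, 4 without lymphatic replicate 4 and 1 to 2 when a library of either group was left out. Lambda constant genes moved in opposite directions, Iglc2 from 134 to 23.2 CPM and Iglc3 from 3.73 to 52.8 CPM, but these are near-identical copies whose reads counting can exchange.

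Among 30 transcription factors of B cells 29 were tested, 12 were called higher and 5 lower (2 to 3 lower with any library of either group left out). Klf2, a factor of resting and circulating lymphocytes, read 3.97, 2.61, 2.26 and 3.23 CPM in culture and 41.1, 31.99, 39.3 and 37.6 CPM in hematogenous libraries (log2 3.61 ± 0.38, adjusted p = 6.90e-06). Spib went from 95.2 to 292 CPM (log2 1.62 ± 0.13), Bcl11a from 23.8 to 82.01 CPM (log2 1.79 ± 0.13) and Ikzf3, which encodes Aiolos, from 133 to 352 CPM (log2 1.404 ± 0.32). Bcl6, the repressor that defines germinal centre B cells, fell from 23.4, 25.4, 20.7 and 19.6 CPM in culture to 3.93, 8.502, 4.21 and 4.37 CPM in hematogenous 1 to 4 (log2 −2.06 ± 0.24, adjusted p = 1.84e-05). Hematogenous 2 was higher for Bcl6 than the other hematogenous libraries, yet below every culture library.

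The germinal centre list held 15 tested genes, of which 7 were called higher and 4 lower. Besides Bcl6, the receptor Il21r fell from 23.003 to 8.06 CPM (log2 −1.51 ± 0.23) and the G protein regulator Rgs1 from 3.16 to 0.258 CPM (log2 −3.41 ± 0.48). Among the higher members was the methyltransferase Ezh2, from 213 to 307 CPM (log2 0.53 ± 0.099). Of 14 tested genes of precursor B cells, 6 were called higher and 3 lower. The interleukin 7 receptor Il7r went from 48.4 to 118 CPM (log2 1.29 ± 0.28) and Cd93 from 569.8 to 285 CPM (log2 −0.998 ± 0.22). Dntt, the template-independent polymerase of receptor rearrangement, had 62 counts over the culture group and 1 over the hematogenous group, a ratio of depth-scaled counts of 67.5 (95% counting interval 11.7 to 2707). Plasma cell genes were split, with 5 of 10 tested members higher and 3 lower; Derl3 went from 7.97 to 42.9 CPM (log2 2.43 ± 0.21) and Sdc1, the plasma cell marker syndecan, from 29.1 to 11.8 CPM (log2 −1.29 ± 0.22).

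Receptors that place lymphocytes in the node moved in both directions. Of 22 genes of homing and egress 13 were tested, and 6 were called higher and 3 lower. The median log2 fold change was 0.993 over the tested genes, but 0.214 over all 22 on the log2(CPM + 1) scale. S1pr1, the receptor that draws lymphocytes out of nodes towards sphingosine phosphate, read 78.6, 79.2, 79.1 and 74.6 CPM in culture and 22.96, 15.8, 18.1 and 29.6 CPM in hematogenous 1 to 4 (log2 −1.86 ± 0.21, adjusted p = 1.13e-05). It was lower in all 4 hematogenous libraries, while Klf2, a known activator of S1pr1, was higher in all 4. Ccr7, the receptor for entry into the T cell zone, fell from 145, 133, 125 and 122 CPM to 48.1, 46.2, 45.01 and 43.9 CPM (log2 −1.52 ± 0.16, adjusted p = 8.37e-06). S1pr4, another sphingosine phosphate receptor, went from 7.89 to 21.3 CPM (log2 1.45 ± 0.37). Cd69, which holds S1PR1 inside the cell, fell from 11.1 to 1.81 CPM (log2 −2.599 ± 0.22). P2ry10, a lysophospholipid receptor, had 0 counts in culture and a mean of 3.91 CPM in hematogenous libraries, at least 47.5-fold higher. Cxcr4 was not called, at 127 and 150.03 CPM (log2 0.24 ± 0.25, adjusted p = 0.535).

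Itgal, the alpha chain of the integrin LFA-1, read 1.48, 2.43, 1.61 and 1.04 CPM in culture and 39.5, 40.2, 32.2 and 39.3 CPM in hematogenous libraries (log2 4.57 ± 0.25, adjusted p = 1.86e-08), while its beta chain Itgb2 was not called at 55.6 and 49.5 CPM (adjusted p = 0.339). The alpha 4 chain Itga4 went from 142 to 312 CPM (log2 1.14 ± 0.32) and its partner Itgb7 from 0.332 to 5.31 CPM (log2 3.99 ± 0.54). Lower were Itgav, from 73.4 to 39.4 CPM (log2 −0.898 ± 0.18), and Itga1, from 29.9 to 17.7 CPM (log2 −0.76 ± 0.21), whose call was lost without hematogenous replicate 3 (adjusted p = 0.0551). Of 14 tested integrin genes 3 were called higher and 4 lower. Of 22 tested genes of adhesion and matrix 8 were called higher and 4 lower. Cd47, the surface signal that restrains engulfment, went from 76.3 to 233 CPM (log2 1.61 ± 0.13), Cd2 from 34.2 to 119 CPM (log2 1.799 ± 0.13) and Slamf6 from 34.7 to 111 CPM (log2 1.68 ± 0.12), whereas Alcam fell from 31.5 to 2.63 CPM (log2 −3.603 ± 0.20). The laminin chain Lama5 read 17.1, 14.8, 16.02 and 12.3 CPM in culture and had a single count in hematogenous 1 and 0 in the 3 others, a count ratio of culture over hematogenous of 610.5 (95% counting interval 109 to 24155).

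**Figure D2:**
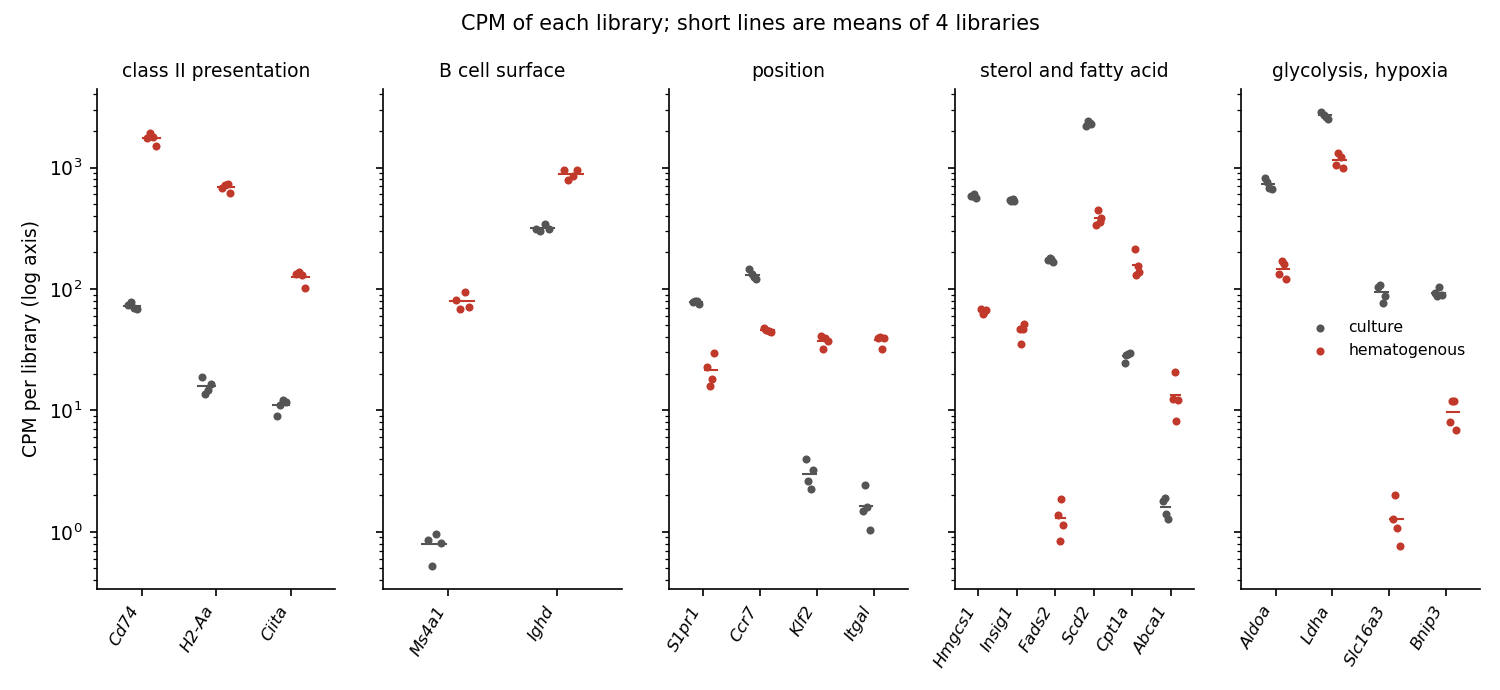
CPM on a log axis for each culture library (grey) and each hematogenous library (red), with short lines at the means of 4 libraries, for genes of class II presentation, the B cell surface, lymphocyte position, lipid metabolism and glycolysis with hypoxia. For each gene drawn, the 4 hematogenous libraries lie all above or all below the 4 culture libraries: above for Cd74, H2-Aa, Ciita, Ms4a1, Ighd, Klf2, Itgal, Cpt1a and Abca1, below for the others.

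Rasgrp1, an exchange factor that activates Ras downstream of antigen receptors, was among the 15 largest rises. It held 2 counts over the whole culture group and 125, 108, 104 and 96.5 CPM in hematogenous 1 to 4, a count ratio of 2028 (95% counting interval 561 to 16752). Of 17 tested genes of Ras and Rap exchange and the GIMAP family 9 were called higher and 1 lower. The related Rasgrp2, which acts on Rap1, went from 31.6 to 64.3 CPM (log2 1.03 ± 0.18) and the adaptor Lat2 from 0.558 to 12.5 CPM (log2 4.47 ± 0.35), while Rasgrp3 fell from 4.299 to 1.67 CPM (log2 −1.31 ± 0.35). Gimap1, Gimap7 and Gimap8, GTPases of lymphocyte survival, went from 0.0965 to 3.33, 0.321 to 2.302 and 0.223 to 2.94 CPM. Gimap6 and Gimap9 were not called, at 31.02 and 36.9 CPM and 22.3 and 22.99 CPM (adjusted p = 0.152 and 0.883). Nalcn, a sodium leak channel known from neurons, read 1.32, 0.695, 1.397 and 1.73 CPM in culture and 215, 190.1, 203 and 234 CPM in hematogenous libraries (log2 7.297 ± 0.19, adjusted p = 2.99e-11). Col5a3, a collagen chain, had 0 counts in all culture libraries and 16.9, 23.2, 9.197 and 13.5 CPM in hematogenous 1 to 4, at least 199-fold higher. Other genes among the 15 largest rises were the receptor Gpr132 (0.274 to 25.5 CPM, log2 6.37 ± 0.35), the cadherin-related Cdhr2 (0.2501 to 11.8 CPM, log2 5.405 ± 0.31) and Xist, the RNA of the inactive X chromosome. Xist read 0.156, 0.347, 0.107 and 0.2305 CPM in culture and 10.04, 14.7, 11.7 and 7.41 CPM in hematogenous 1 to 4 (log2 5.77 ± 0.48, adjusted p = 8.75e-07), so the groups were apart. It stood at 11.8, 25.9, 19.7 and 9.84 CPM in lymphatic 1 to 4. The Y-linked genes Ddx3y, Eif2s3y, Kdm5d and Uty together had 0 counts in every culture and hematogenous library and 1 count in a lymphatic library. Whether Xist came from the lymphoma cells or from other cells, as with Lyz2 and Trbc2, was not tested. Pstpip1, a cytoskeletal adaptor of blood cells, and Ltbp2, which binds microfibrils, had 3 counts each over the culture group and means of 10.99 and 11.02 CPM in hematogenous libraries, count ratios of 138 (95% counting interval 46.9 to 671) and 139 (95% counting interval 47.4 to 678).

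The type I interferon set was higher in the lymph node cells, but unevenly. Of 41 genes, all tested, 28 were called higher and 0 lower, with a median of 1.97. On the log2(CPM + 1) scale the median was 1.36. The filter used all 12 libraries, so members low in both groups could be tested through the lymphatic libraries. Samd9l, an antiviral factor, read 15.7, 15.6, 16.02 and 12.7 CPM in culture and 124, 94.95, 97.2 and 97.6 CPM in hematogenous 1 to 4 (log2 2.79 ± 0.28, adjusted p = 4.30e-06). The RNA sensor RIG-I (Ddx58) went from 5.26 to 26.5 CPM (log2 2.36 ± 0.29), Cmpk2 from 2.31 to 14.3 CPM (log2 2.59 ± 0.36), Ifi27l2a from 6.43 to 34.9 CPM (log2 2.44 ± 0.45) and Slfn8 from 10.1 to 39.7 CPM (log2 1.97 ± 0.29). Mx1, chosen after its values were seen as a classic member, had 2 counts over culture and 8.43, 3.28, 6.16 and 6.08 CPM in hematogenous libraries, a count ratio of 109.8 (95% counting interval 30.1 to 912). Several members that usually respond strongly to interferon were low in both groups. Ifit1 read 1.63, 0.521, 1.61 and 1.04 CPM in culture and 1.28, 0.168, 1.27 and 0.9497 CPM in hematogenous libraries, with overlapping groups (log2 −0.48 ± 0.77, adjusted p = 0.704). Ifit3, which has a near-identical copy, read 0.295 and 1.11 CPM (adjusted p = 0.154), Isg15 0.894 and 2.16 CPM (adjusted p = 0.159) and Rsad2 0.273 and 0.395 CPM (adjusted p = 0.741). These genes were picked with their values known, and Ifit3 passed the test when no filter on low counts was used (adjusted p = 2.62e-04). Among 14 tested receptors and relay genes 5 were called higher and 2 lower. Irf9 went from 8.93 to 24.5 CPM (log2 1.45 ± 0.22) and Ifnar1 from 34.4 to 51.4 CPM (log2 0.58 ± 0.13), and Jak2 fell from 88.5 to 60.97 CPM (log2 −0.54 ± 0.17). The Jak2 call was lost in 6 of the 8 fits without a library (adjusted p up to 0.0753). Of 18 tested genes of the interferon gamma response 10 were called higher and 2 lower. Gbp3, a guanylate-binding protein, went from 1.51 to 12.9 CPM (log2 3.07 ± 0.35) and Irgm1 from 20.7 to 41.4 CPM (log2 0.995 ± 0.26). The 2 members that fell were Gbp2 (11.3 to 2.95 CPM, log2 −1.895 ± 0.32) and Cd274, which encodes PD-L1 (11.6 to 6.14 CPM, log2 −0.92 ± 0.19).

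The interferon stimulated response element, searched as GAAA, any 2 bases and GAAA on both strands, lay in the promoter window of 17 of the 31 type I interferon genes with a promoter in the table (54.8%), against 3.84% of all tested genes with one. The list is built of known interferon targets, so a share above that of all genes follows from how it was chosen. Oas3, a sensor of double-stranded RNA, is shown as a called member with a single match before its start (chr5:120777660-120777909, minus strand, GRCm38.p6, 5′ to 3′, match in capitals); it held 2 counts over culture and 76 over the hematogenous group.
Oas3: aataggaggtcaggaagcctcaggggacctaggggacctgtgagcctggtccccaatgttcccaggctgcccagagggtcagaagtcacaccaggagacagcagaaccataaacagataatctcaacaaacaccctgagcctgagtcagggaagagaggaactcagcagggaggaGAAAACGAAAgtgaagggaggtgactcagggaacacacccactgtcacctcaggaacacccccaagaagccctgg

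Cholesterol synthesis was lower along nearly its whole length. Of 24 genes 23 were tested, 0 were called higher and 21 lower, with a median of −2.23. Hmgcs1, an early enzyme of the pathway, read 579, 578, 608 and 564 CPM in culture and 68.6, 61.6, 64.5 and 66.7 CPM in hematogenous 1 to 4 (log2 −3.16 ± 0.13, adjusted p = 2.02e-09). The methyl sterol oxidase Msmo1 fell from 327 to 34.7 CPM (log2 −3.24 ± 0.13), lanosterol synthase Lss from 280.1 to 36.3 CPM (log2 −2.95 ± 0.19) and Pmvk from 149 to 21.8 CPM (log2 −2.77 ± 0.24). The exceptions, named after their values were seen, were Ebp (42.7 and 32.6 CPM, log2 −0.39 ± 0.18, adjusted p = 0.138) and Ggps1 (34.2 and 31.4 CPM, log2 −0.12 ± 0.14, adjusted p = 0.595), the latter on the branch to prenyl groups rather than sterol. Each of the 8 fits that left out a library of the 2 groups also called 21 members lower.

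Genes that sense and move sterol were called in both directions, 3 higher and 4 lower, and 7 of the 14 tested members were not called. Insig1, which holds SREBP in the endoplasmic reticulum and is itself an SREBP target, read 539.7, 528, 551 and 527 CPM in culture and 46.5, 35.3, 46.8 and 51.9 CPM in hematogenous libraries (log2 −3.58 ± 0.15, adjusted p = 2.64e-09). The factors Srebf1 and Srebf2 fell from 81.4 to 31.6 CPM (log2 −1.36 ± 0.26) and from 357 to 163 CPM (log2 −1.13 ± 0.20). The exporter Abca1, a target of the oxysterol receptors LXR, rose from 1.79, 1.91, 1.397 and 1.27 CPM to 12.4, 20.5, 8.22 and 12.2 CPM (log2 3.07 ± 0.32, adjusted p = 6.21e-06), with hematogenous 2 the highest. Npc2, which passes cholesterol out of lysosomes, went from 180.03 to 271 CPM (log2 0.59 ± 0.20), a call lost in 7 of the 8 fits without a library (adjusted p up to 0.154). Only 1 to 2 members were called higher when a library of the 2 groups was left out.

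A sterol regulatory element, searched as TCACNCCAC on both strands, was found in the window of 1 of the 16 cholesterol genes with a promoter in the table (6.25%), against 1.41% of all tested genes with one. The match was in Hmgcs1, shown because it had the second largest fall of the list after Msmo1 (chr13:119690101-119690350, plus strand, GRCm38.p6, 5′ to 3′, match in capitals). The share rests on 1 gene of a list of known pathway genes, so it can follow from how the list was chosen. No match says only that these letters are not in this window.
Hmgcs1: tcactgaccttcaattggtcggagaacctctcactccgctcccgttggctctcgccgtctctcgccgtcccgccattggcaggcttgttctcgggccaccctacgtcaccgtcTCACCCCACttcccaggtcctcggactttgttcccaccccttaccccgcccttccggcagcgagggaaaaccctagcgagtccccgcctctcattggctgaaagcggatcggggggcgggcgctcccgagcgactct

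Genes of fatty acid synthesis were mostly lower, and the called genes of fatty acid oxidation were higher. Of 13 tested genes of synthesis and desaturation 11 were called lower and 1 higher, with a median of −0.82. Fads2, the delta-6 desaturase that starts the making of long polyunsaturated fatty acids, read 173, 179.97, 176 and 165 CPM in culture and 1.36, 0.842, 1.86 and 1.14 CPM in hematogenous 1 to 4. The drop of log2 −7.04 ± 0.36 (adjusted p = 1.18e-08) left every hematogenous library under 2 CPM. Fads1, the delta-5 desaturase, fell from 76.96 to 14.4 CPM (log2 −2.41 ± 0.20). Scd2, a stearoyl-CoA desaturase, read 2195, 2400.2, 2326 and 2280.2 CPM in culture and 337, 445, 356 and 385 CPM in hematogenous libraries (log2 −2.59 ± 0.19, adjusted p = 2.13e-07), and Scd1 fell from 717 to 233 CPM (log2 −1.62 ± 0.15). The acetyl-CoA synthetase Acss2 fell from 11.4 to 2.82 CPM (log2 −2.01 ± 0.19). The change was smaller for fatty acid synthase Fasn (581 and 329 CPM, log2 −0.82 ± 0.28) and for Acly (616 and 409 CPM, log2 −0.59 ± 0.17), and Acaca missed the threshold (log2 −0.396 ± 0.28, adjusted p = 0.3398). The member that rose, Acacb, is the carboxylase tied to mitochondria and went from 0.4899 to 2.11 CPM. Of 22 tested genes of fatty acid oxidation 6 were called higher and 0 lower. Cpt1a, the gatekeeper of fatty acid entry into mitochondria, read 24.3, 28.3, 29.2 and 29.6 CPM in culture and 214, 129.6, 154 and 138 CPM in hematogenous libraries (log2 2.51 ± 0.23, adjusted p = 1.76e-06). The carnitine carrier Slc25a20 went from 8.12 to 26.8 CPM (log2 1.73 ± 0.25) and Decr1, needed for unsaturated fatty acids, from 9.46 to 25.8 CPM (log2 1.43 ± 0.20). The higher count was 11 with the 8 libraries alone, 10 without lymphatic replicate 4 and 3 without hematogenous replicate 3.

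Glycolysis was lower from glucose import to lactate export. Of 21 tested genes 16 were called lower and 1 higher, with a median of −1.23, and 16 were again called lower in each fit without a library of the 2 groups. The glucose transporter Slc2a1 fell from 54.9 to 11.4 CPM (log2 −2.26 ± 0.27). Aldoa, the aldolase, read 822, 763, 679 and 662 CPM in culture and 132, 169, 159.8 and 122 CPM in hematogenous 1 to 4 (log2 −2.33 ± 0.24, adjusted p = 5.85e-06). Pgk1 fell from 904 to 310.4 CPM (log2 −1.54 ± 0.12), Pgam1 from 285 to 109 CPM (log2 −1.38 ± 0.10), Eno1 from 1715 to 731 CPM (log2 −1.23 ± 0.19) and Pkm from 2491 to 1045 CPM (log2 −1.25 ± 0.16). Ldha, which makes lactate, read 2881, 2720.4, 2624 and 2527 CPM in culture and 1041, 1309, 1230.00 and 998 CPM in hematogenous libraries (log2 −1.23 ± 0.17, adjusted p = 1.04e-04). Slc16a3, the exporter MCT4, fell the furthest, from 104, 107, 76.5 and 87.9 CPM to 1.28, 2.02, 1.08 and 0.7597 CPM (log2 −6.101 ± 0.46, adjusted p = 3.34e-07). The other lactate carrier, Slc16a1, was not called at 564 and 524 CPM (log2 −0.104 ± 0.093, adjusted p = 0.465). Hk1 and Slc2a3 were not called either (log2 0.061 ± 0.18, adjusted p = 0.848 and log2 0.27 ± 0.12, adjusted p = 0.108). Pfkfb3, whose product stimulates phosphofructokinase, was the 1 member called higher, from 51.8 to 78.9 CPM (log2 0.61 ± 0.15).

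**Figure D3:**
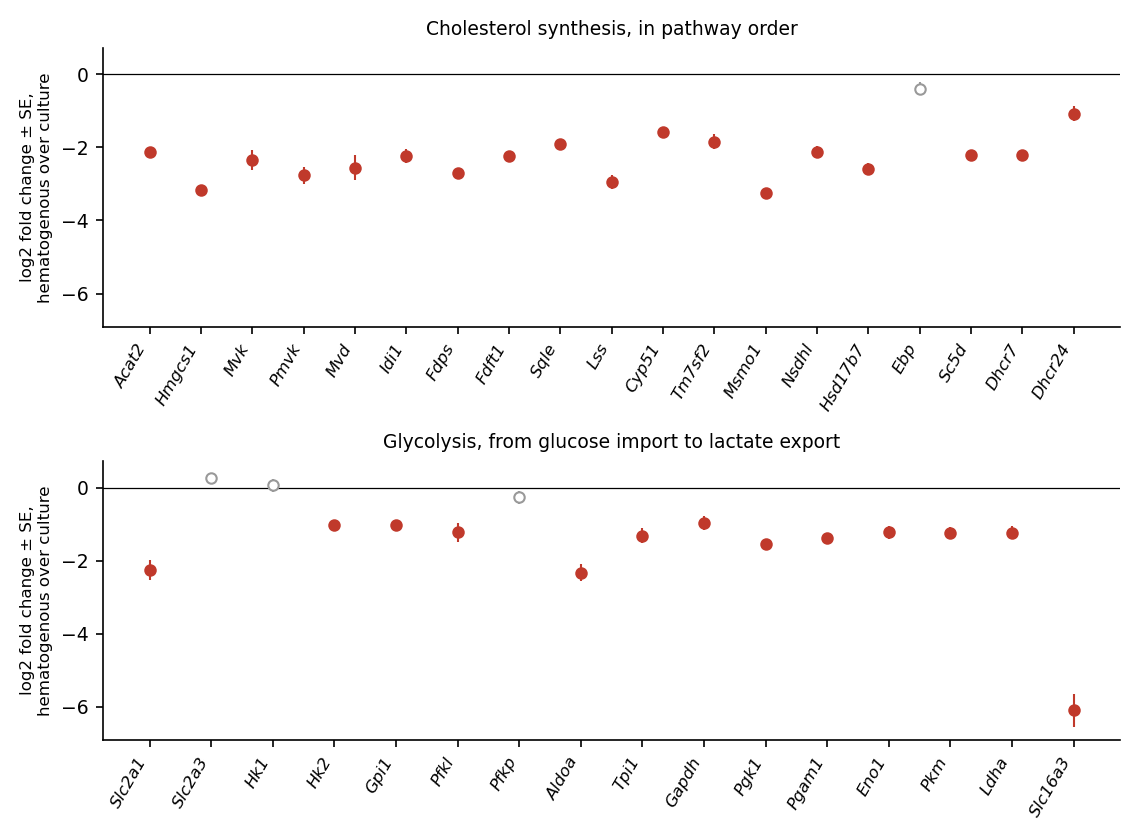
Log2 fold change, hematogenous over culture, with its SE, for enzymes in the order of the pathway: cholesterol synthesis above, glycolysis below. Filled red points were called and open grey points were not; apart from Ebp the cholesterol steps shown lie between −3.24 and −1.08, and Slc16a3 at −6.10 is the lowest of the glycolytic genes shown.

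Hypoxia genes fell with them. Of 25 genes 20 were tested, 0 were called higher and 16 lower, with a median of −1.22. Bnip3, a mitochondrial receptor for mitophagy, read 93.1, 87.6, 104 and 88.8 CPM in culture and 8.03, 12.04, 11.9 and 6.84 CPM in hematogenous 1 to 4 (log2 −3.25 ± 0.21, adjusted p = 9.93e-08). The repressor Bhlhe40 fell from 75.5 to 2.77 CPM (log2 −4.795 ± 0.21), the prolyl hydroxylase P4ha1 from 133 to 26.9 CPM (log2 −2.300 ± 0.13), Ankrd37 from 34.2 to 7.37 CPM (log2 −2.22 ± 0.33) and the oxygen sensor Egln1 from 88.98 to 23.02 CPM (log2 −1.95 ± 0.16). Hif1a itself went from 151 to 96.02 CPM (log2 −0.66 ± 0.15). Vegfa was not called, at 43.5 and 51.1 CPM (log2 0.23 ± 0.14, adjusted p = 0.247). The core of the hypoxia response element, ACGTG on either strand, which is also contained in the E-box CACGTG, lay in the window of 16 of 21 hypoxia genes with a promoter in the table (76.2%) and of 14 of 21 glycolysis genes (66.7%), against 30% of all tested genes with one. The hypoxia list was built of known targets, and so short a motif is common by its length. The 250 bases before the start of P4ha1 (chr10:59323046-59323295, plus strand) and of Bnip3 (chr7:138909507-138909756, minus strand) are given 5′ to 3′ in GRCm38.p6, with the matches in capitals, as called members that hold the core; they were picked after the shares were known, and in Bnip3 the core is part of an E-box.
P4ha1: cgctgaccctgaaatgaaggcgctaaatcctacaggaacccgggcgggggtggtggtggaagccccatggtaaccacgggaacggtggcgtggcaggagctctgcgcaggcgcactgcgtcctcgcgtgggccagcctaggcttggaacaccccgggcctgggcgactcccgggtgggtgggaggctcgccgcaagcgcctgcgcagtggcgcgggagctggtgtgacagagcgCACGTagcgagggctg
Bnip3: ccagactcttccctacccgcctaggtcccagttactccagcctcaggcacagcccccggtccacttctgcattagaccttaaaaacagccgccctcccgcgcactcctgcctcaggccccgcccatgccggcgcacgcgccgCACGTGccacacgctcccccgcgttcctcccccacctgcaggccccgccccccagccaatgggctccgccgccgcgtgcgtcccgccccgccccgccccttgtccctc

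With all 12 libraries fitted, few genes of oxidative phosphorylation and few ribosomal protein genes were called. The TCA cycle and MYC target lists had calls in both directions, where 13.9% of all genes were called in each. The MYC target counts were near that share. Of 60 nuclear genes of oxidative phosphorylation 2 were called lower and 0 higher, Cox8a from 218 to 116 CPM (log2 −0.91 ± 0.21) and Cox6a1 from 229 to 123 CPM (log2 −0.904 ± 0.29). The Cox6a1 call was lost in 6 of the 8 fits without a library (adjusted p up to 0.0887). With the 8 libraries alone 21 members were called lower and 8 higher, and without lymphatic replicate 4 there were 19 and 6. Over all genes the 8-library fit called 3194 lower and 3150 higher of 12572. The fit without lymphatic replicate 4 called 2935 and 2995 of 13768. None of the 13 mitochondrially encoded genes was called by edgeR, DESeq2 or limma-voom, and 0 had an unadjusted p under 0.05 in edgeR; with the 8 libraries alone 4 were called higher. Of 25 genes of the TCA cycle and its feeders 3 were called higher and 6 lower. Idh1, the cytosolic isocitrate dehydrogenase that yields NADPH, fell from 38.2 to 9.22 CPM (log2 −2.04 ± 0.18), and pyruvate carboxylase Pcx from 35.5 to 14.6 CPM (log2 −1.28 ± 0.17), while Ogdh, named after its value was seen, went from 177 to 273 CPM (log2 0.63 ± 0.18). Myc, the oncogene of the model, stood at 595, 676, 560.4 and 563 CPM in culture and at 657, 704, 565 and 625 CPM in hematogenous 1 to 4. These ranges overlap and the difference was not called (log2 0.091 ± 0.13, adjusted p = 0.668). Of 39 tested MYC targets and genes of ribosome biogenesis 5 were called higher and 6 lower, with a median of 0.070; the higher count was 14 with the 8 libraries alone, 11 without lymphatic replicate 4 and 2 to 4 when a library of either group was left out. Nucleolin (Ncl) went from 2824 to 3746 CPM (log2 0.41 ± 0.11) and Cdk4 from 454 to 325 CPM (log2 −0.48 ± 0.17), a call lost in each fit without a library of the 2 groups (adjusted p 0.0615 to 0.131). Of the 11 tested genes of the MYC partner network 1 was called higher, Mlxip from 106 to 200.4 CPM (log2 0.91 ± 0.23), and 2 lower. Of 76 cytosolic ribosomal proteins 1 was called, Rpl13a, lower at log2 −0.86 ± 0.20; with the 8 libraries alone 26 were lower and 6 higher, and without lymphatic replicate 4 there were 16 and 5. Reads of ribosomal protein genes can be split with their processed copies. DNA replication had 3 of 42 members called higher and 4 lower, and mitosis 4 of 30 higher and 3 lower, against 13.9% of all genes in each direction. Examples were Chaf1b (39.6 to 72.3 CPM, log2 0.87 ± 0.15), Pola2 (153 to 89.1 CPM, log2 −0.78 ± 0.091), Nusap1 (115 to 184 CPM, log2 0.68 ± 0.13) and Bub1 (201 to 130.3 CPM, log2 −0.63 ± 0.16). The proliferation marker Mki67, read after the fact, was at 1209.7 and 1750.5 CPM (log2 0.53 ± 0.27, adjusted p = 0.165). With the 8 libraries alone 10 members of replication were called higher and 10 lower, and 8 of mitosis higher and 6 lower. Without lymphatic replicate 4 there were 9 and 7, and 8 and 5. Both fits also called more of all genes, as given above. With a library of either group left out 1 to 3 of replication and 1 to 4 of mitosis were called higher.

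**Figure D4:**
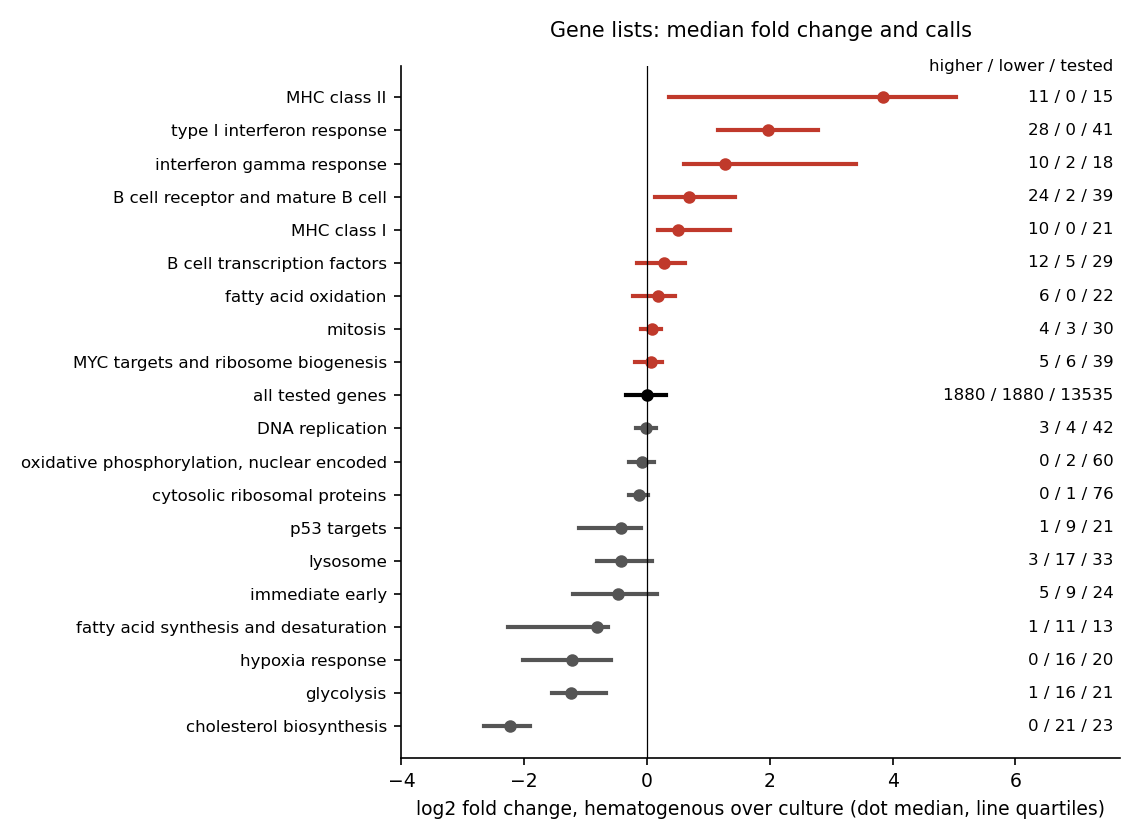
Median (dot) and quartiles (line) of the log2 fold change, hematogenous over culture, over the tested members of 19 of the 64 gene lists and of all tested genes (black), sorted by median, with the number called higher, called lower and tested at the right. Among the lists drawn, MHC class II has the highest median at 3.84 and cholesterol biosynthesis the lowest at −2.23.

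Targets of p53 were lower in part. Of 21 tested genes 9 were called lower and 1 higher, with a median of −0.43. The antiproliferative Btg2 fell from 209 to 78.4 CPM (log2 −1.41 ± 0.16), Zmat3 from 112 to 46.6 CPM (log2 −1.27 ± 0.20) and the death effector Bax from 97.3 to 45.1 CPM (log2 −1.11 ± 0.36), whose call was lost in 6 of the 8 fits without a library (adjusted p up to 0.0976). Rrm2b, a ribonucleotide reductase subunit, went the other way from 23.9 to 78.9 CPM (log2 1.72 ± 0.18). Trp53 itself was not called (log2 −0.082 ± 0.11, adjusted p = 0.639). In the BCL2 family 5 of 12 tested genes were called higher and 2 lower. Survival genes Bcl2 (45.4 to 60.9 CPM, log2 0.42 ± 0.10) and Mcl1 (366 to 477 CPM, log2 0.38 ± 0.11) rose, and so did the death-promoting Bcl2l11, which encodes BIM (57.7 to 90.5 CPM, log2 0.65 ± 0.12), and Bid (55.01 to 77.99 CPM, log2 0.502 ± 0.11). Mcl1 lost its call without culture replicate 2 (adjusted p = 0.0525), and Bcl2 and Mcl1 with no filter on low counts (0.0631 and 0.0613).

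Genes of iron, metal and redox handling were among the largest falls. Fth1, the heavy chain of the iron store ferritin, read 1592, 1458, 1561 and 1418 CPM in culture and 458, 569, 573 and 585 CPM in hematogenous 1 to 4 (log2 −1.46 ± 0.16, adjusted p = 1.20e-05). Its light chain partner Ftl1 fell from 202 to 63.5 CPM (log2 −1.66 ± 0.38) and the transferrin receptor Tfrc, which imports iron, from 1274 to 578 CPM (log2 −1.14 ± 0.16). Glutathione reductase Gsr fell from 18.2 to 1.07 CPM (log2 −4.03 ± 0.24) and thioredoxin reductase Txnrd1 from 111 to 42.7 CPM (log2 −1.37 ± 0.14). The list as a whole was mixed, with 8 of 30 tested members lower and 6 higher. Mt1, a metallothionein that binds zinc, read 173, 166, 100.5 and 125 CPM in culture and 2.65, 7.49, 4.11 and 2.47 CPM in hematogenous libraries (log2 −5.02 ± 0.51, adjusted p = 4.90e-06). Of 13 tested metallothionein and zinc genes 5 were called lower and 0 higher, among them the zinc carriers Slc39a6 (180.5 to 66.5 CPM, log2 −1.44 ± 0.10) and Slc30a4 (62.2 to 22.1 CPM, log2 −1.49 ± 0.17).

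Lysosomal genes leaned lower, with 17 of 33 called lower, 3 higher and a median of −0.43. The proton pump subunit Atp6v0a1 fell from 81.03 to 22.5 CPM (log2 −1.85 ± 0.14), the proteases Ctsl and Tpp1 from 12.4 to 4.899 CPM (log2 −1.35 ± 0.25) and from 113 to 45.4 CPM (log2 −1.32 ± 0.12), and the sialidase Neu1 from 119 to 52.6 CPM (log2 −1.17 ± 0.15). Ctss, the protease that trims the invariant chain in B cells, was not called (192 and 208 CPM, log2 0.12 ± 0.16, adjusted p = 0.658). In autophagy 5 of 22 tested genes were called lower (8 with the 8 libraries alone, 3 without culture replicate 1 or 2 or hematogenous replicate 2) and 1 higher, led by the receptor Optn (31.02 to 7.21 CPM, log2 −2.11 ± 0.22). Of 21 genes of the unfolded protein response 2 were called higher and 4 lower (1 to 3 lower with a library left out), and of 16 tested heat shock genes 1 was higher and 5 lower. Of all genes 13.9% were called in each direction. Hsph1 fell from 309 to 171 CPM (log2 −0.85 ± 0.17) and Ern1, the sensor IRE1, from 10.1 to 5.48 CPM (log2 −0.88 ± 0.28), whereas Hsp90ab1 went from 4173 to 5209 CPM (log2 0.32 ± 0.093). Ern1 lost its call in 5 of the 8 fits without a library (adjusted p up to 0.0912) and Hsp90ab1 without culture replicate 4 (0.0754) and with no filter on low counts (0.157). Of 24 tested genes of the ATF4 and amino acid response 6 were called higher and 1 lower (11 higher with the 8 libraries alone and without lymphatic replicate 4); Atf5 went from 5.74 to 15.9 CPM (log2 1.49 ± 0.29), the amino acid carrier Slc7a5 from 151 to 261 CPM (log2 0.78 ± 0.15), and the glutamine carrier Slc1a5 fell from 1355 to 815 CPM (log2 −0.73 ± 0.12). The ATF4 composite element TGATGNAA, on either strand, lay in the window of 9 of 20 listed genes with a promoter in the table (45%), against 2.82% of all tested genes with one. With only the bases before the start searched, the shares were 35% and 2.435%. The E-box CACGTG, which reads the same on both strands, lay in 31.4% of 35 MYC targets against 12.2%, and in 14.3% against 10.3% when only the bases before the start were searched. The ATF4 and MYC lists were built around known targets, so a share above that of all genes can follow from how they were chosen.

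Ligands of the TGF-beta and Notch pathways had some of the largest falls. Tgfb3 read 19.5, 18.2, 18.7 and 19.9 CPM in culture and 0.161, 0.0842, 0 and 0.1899 CPM in hematogenous 1 to 4 (log2 −7.43 ± 0.36, adjusted p = 7.57e-09), and Tgfb2 read 26.9, 33.01, 29.9 and 29.7 CPM and 2.73, 1.52, 1.86 and 2.66 CPM (log2 −3.79 ± 0.20, adjusted p = 1.52e-08). Both ligands were lower in every hematogenous library, while Tgfb1, the third ligand, rose from 46.5 to 74.4 CPM (log2 0.68 ± 0.18). The receptors Tgfbr2 (108 to 54.1 CPM, log2 −0.998 ± 0.13), Bmpr1a (66.5 to 17.2 CPM, log2 −1.96 ± 0.18) and Bmpr2 (53.2 to 7.36 CPM, log2 −2.85 ± 0.25) fell, and Acvr1b rose from 8.44 to 18.2 CPM (log2 1.09 ± 0.20). In all 2 of 23 tested genes of this pathway were called higher and 7 lower. The Notch ligand Jag2 read 26.1, 28.5, 19.02 and 20.3 CPM in culture and 0.241, 0.589, 0.0978 and 0 CPM in hematogenous libraries (log2 −6.38 ± 0.56, adjusted p = 1.24e-06), and the Notch target Hey1 fell from 6.89 to 1.22 CPM (log2 −2.51 ± 0.25); 3 of 14 tested Notch genes were called lower and 0 higher (7 lower with the 8 libraries alone and without lymphatic replicate 4). Notch1 and Notch2 were not called (log2 0.48 ± 0.33, adjusted p = 0.331 and log2 0.38 ± 0.20, adjusted p = 0.189). Of 11 tested Wnt genes 3 were called lower, Fzd7, Tcf7l2 and Lrp5, and 1 higher, Tcf7, which is also on the T cell list. Of all genes 13.9% were called in each direction.

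Receptors for cytokines and microbial patterns were higher in part. Of 18 tested cytokine receptor genes 9 were called higher and 2 lower. Il10ra went from 9.72 to 60.5 CPM (log2 2.63 ± 0.20), the shared beta chain Csf2rb from 0.803 to 14.4 CPM (log2 4.11 ± 0.28) and Il17ra from 55.2 to 136 CPM (log2 1.296 ± 0.13). Of 16 tested Toll-like receptor genes and their adaptors 7 were called higher and 1 lower, among them Tlr1 (10.9 to 34.2 CPM, log2 1.63 ± 0.18) and Tlr2 (8.06 to 14.6 CPM, log2 0.84 ± 0.16). Of 27 costimulation and checkpoint genes 16 were tested, and 8 were called higher and 4 lower. The median over the tested genes was 1.09, but 0.141 over the 25 members with a count on the log2(CPM + 1) scale. The ICOS ligand Icosl went from 0.8096 to 12.3 CPM (log2 3.93 ± 0.32), Cd86 from 0.169 to 5.77 CPM (log2 5.05 ± 0.63) and galectin-9, Lgals9, from 146 to 484 CPM (log2 1.72 ± 0.13), whereas Tnfsf9 fell from 1.78 to 0.108 CPM (log2 −3.74 ± 0.55). Of 10 tested Ly6 and Schlafen genes 9 were called higher, with a median of 5.06 (3.825 with the 3 genes that had a group without counts set at their bound). Over all 13 members of that list the median was 1.12 on the log2(CPM + 1) scale. Ly6d went from 0.211 to 17.98 CPM (log2 6.17 ± 0.69) and Slfn2 from 0.319 to 19.1 CPM (log2 5.96 ± 0.58). NF-kB genes were split, 5 of 18 higher and 3 lower: the inhibitor Nfkbia went from 20.5 to 47.5 CPM (log2 1.21 ± 0.21) and Birc3 from 43.2 to 88.6 CPM (log2 1.03 ± 0.17), while Nfkb2 fell from 19.1 to 7.19 CPM (log2 −1.38 ± 0.23) and the adhesion molecule Icam1 from 38.5 to 14.6 CPM (log2 −1.38 ± 0.18).

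Immediate early genes did not share a direction, with 5 of 24 called higher and 9 lower. Egr2 read 29.2, 28.1, 25.2 and 25.7 CPM in culture and 1.61, 3.87, 3.13 and 2.47 CPM in hematogenous libraries (log2 −3.28 ± 0.27, adjusted p = 7.22e-07), whereas its relative Egr1 went from 4.098 to 12.2 CPM (log2 1.59 ± 0.18). Fosb read 5.83, 8.51, 6.34 and 7.95 CPM in culture and 42.8, 68.4, 38.7 and 84.7 CPM in hematogenous libraries (log2 3.04 ± 0.35, adjusted p = 1.83e-05), and Fos fell from 22.6 to 10.5 CPM (log2 −1.14 ± 0.23). For Egr2 and Fosb the groups did not overlap. Fosl2 read 7.08, 4.34, 6.02 and 5.301 CPM in culture and 31.6, 5.22, 33.7 and 50.3 CPM in hematogenous 1 to 4 (log2 2.37 ± 0.48, adjusted p = 0.00177); hematogenous 2 lay within the culture range and the 3 others above it.

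Of 12 tested glucocorticoid targets 4 were called higher and 2 lower. Tsc22d3, which encodes GILZ, read 17.97, 16.2, 18.2 and 14.3 CPM in culture and 171, 51.1, 151 and 136 CPM in hematogenous 1 to 4 (log2 2.93 ± 0.35, adjusted p = 2.43e-05). Fkbp5 read 48.9, 52.5, 51.6 and 47.02 CPM and 223, 111, 149.7 and 192 CPM (log2 1.75 ± 0.19, adjusted p = 8.55e-06). Hematogenous 2 was the lowest of its group for both genes and still above every culture library. The receptor Nr3c1 was not called (log2 −0.13 ± 0.16, adjusted p = 0.598), and Ddit4, a target shared with hypoxia and p53, fell from 94.9 to 33.7 CPM (log2 −1.49 ± 0.28). Among 15 tested clock genes 7 were called lower and 2 higher; Bhlhe41 fell from 91.7 to 42.7 CPM (log2 −1.105 ± 0.12), Ciart from 16.5 to 6.29 CPM (log2 −1.38 ± 0.17) and Cry1 from 47.997 to 29.98 CPM (log2 −0.68 ± 0.10), and Cry2 went from 10.9 to 19.2 CPM (log2 0.82 ± 0.16). The hour at which cells were taken is not given in the sources used here. Of 34 tested chromatin modifiers 6 were called higher and 5 lower (15 higher with the 8 libraries alone, 13 without lymphatic replicate 4 and 3 without culture replicate 1). In the main fit 13.9% of all genes were called in each direction, and the chromatin counts were near that share. The histone demethylase Kdm5b read 40.1, 35.6, 40.4 and 39.3 CPM in culture and 4.42, 3.11, 2.25 and 2.09 CPM in hematogenous libraries (log2 −3.66 ± 0.29, adjusted p = 5.46e-07). Hdac9 fell from 195 to 40.3 CPM (log2 −2.27 ± 0.19), Hdac5 from 123 to 55.4 CPM (log2 −1.15 ± 0.21) and the methyltransferase Dnmt3a from 108 to 60.3 CPM (log2 −0.84 ± 0.21).

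Some of the largest changes were in genes outside the pathway lists. Nyx, known from the retina, fell from 148, 165, 180.4 and 189.8 CPM in culture to 1.36, 1.18, 2.25 and 4.94 CPM in hematogenous libraries (log2 −6.31 ± 0.56, adjusted p = 1.37e-06). Papss2, which makes the sulfate donor PAPS, fell from 38.4 to 0.924 CPM (log2 −5.27 ± 0.26), Asph from 14.8 to 0.3499 CPM (log2 −5.28 ± 0.34) and the stress gene Gadd45g from 17.99 to 0.249 CPM (log2 −5.88 ± 0.60). Klrb1c, a marker listed for NK cells, stood at 18.7, 18.6, 22.7 and 20.7 CPM in culture and 0.161, 0.337, 0.391 and 0 CPM in hematogenous libraries, and Fcgr3, listed for macrophages, at 15.8 and 0.485 CPM; both were highest in the cultured cells. By size of the CPM difference the gains outside the class II genes were Pabpc1 (3055 to 4419.8 CPM, log2 0.53 ± 0.11), Rps3a1 (2756 to 3849 CPM, log2 0.48 ± 0.17, adjusted p = 0.0489, a call lost in 7 of the 8 fits without a library, with adjusted p up to 0.130), Ucp2 (1329 to 1989 CPM, log2 0.58 ± 0.15) and Reln (540.4 to 1182 CPM, log2 1.13 ± 0.27), with Hsp90ab1 and Ncl given above. Eef1g was among the largest losses, from 1917 to 1208 CPM (log2 −0.67 ± 0.15).

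The lymph node groups were then set against each other, to show where the blood route cells stand apart; route and day (18 against 11) change together and cannot be told apart. Of 13535 genes 3012 (22.3%) were called, 1470 (10.9%) higher in hematogenous and 1542 (11.4%) lower. With the 8 lymph node libraries alone 1734 were called, without hematogenous replicate 1 there were 2002, and leaving out any other library of these groups gave up to 4333, the latter without lymphatic replicate 4. Class II genes were higher still in hematogenous than in lymphatic libraries, with 11 higher and 0 lower of 15 tested. Cd74 read 345, 234, 581 and 651 CPM in lymphatic 1 to 4, between culture and hematogenous (log2 1.94 ± 0.25, adjusted p = 1.69e-04, hematogenous over lymphatic), and H2-Aa 154, 144, 222 and 315 CPM (log2 1.72 ± 0.21, adjusted p = 1.23e-04). Ms4a1 read 10.2, 18.7, 16.9 and 22.9 CPM in lymphatic libraries (log2 2.195 ± 0.21, adjusted p = 2.42e-05). Ighd was lower in lymphatic libraries than in culture by its levels, at 145, 152, 187 and 157 CPM, and highest in hematogenous ones (log2 2.46 ± 0.12, adjusted p = 6.05e-08). B cell transcription factors had 15 higher and 1 lower of 29.

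The interferon set had the opposite order. Of 41 type I interferon genes there were 0 higher and 36 lower in hematogenous than in lymphatic libraries, while 28 were called higher than in culture. These comparisons share the hematogenous libraries. Members low elsewhere could also pass the filter through the lymphatic libraries where they are high, so the filter itself favours the count of 36. Ifit1 read 17.9, 50.97, 5.99 and 31.7 CPM in lymphatic 1 to 4 (log2 −4.87 ± 0.65, adjusted p = 2.07e-04) and Mx1 25.6, 75.7, 10.7 and 22.5 CPM (log2 −2.496 ± 0.51, adjusted p = 0.00353). Samd9l did not follow, with 109.8, 165, 68.2 and 59.98 CPM (log2 0.036 ± 0.25, adjusted p = 0.938). Col5a3 read 0.203, 0.0399, 0.552 and 0.225 CPM in lymphatic libraries (log2 6.08 ± 0.51, adjusted p = 4.43e-05), Nalcn 38.3, 33.4, 31.9 and 29.5 CPM (log2 2.66 ± 0.14, adjusted p = 1.07e-07) and Crip1 a mean of 39.7 ± 27.6 against 275 ± 47.1 CPM (log2 2.79 ± 0.39, adjusted p = 2.83e-04). Pcp4 showed no difference that passed the test between hematogenous (25.4, 18.6, 28.4 and 16.9 CPM) and culture (19.5, 19.3, 16.98 and 18.2 CPM, adjusted p = 0.328) and was at 1.22, 0.718, 1.03 and 1.41 CPM in lymphatic libraries (log2 4.37 ± 0.24, adjusted p = 1.07e-07). Slc16a3 read 17.4, 18.3, 33.99 and 63.6 CPM in lymphatic libraries (log2 −4.61 ± 0.45, adjusted p = 2.99e-05), Mt1 34.6, 22.5, 50.5 and 109.9 CPM (log2 −3.65 ± 0.49, adjusted p = 2.12e-04) and Bnip3 35.4, 41.7, 46.9 and 62.8 CPM (log2 −2.25 ± 0.21, adjusted p = 2.03e-05), so all 3 were lowest in hematogenous libraries. Hmgcs1 differed less, at 84.3, 93.1, 109 and 69.9 CPM (log2 −0.45 ± 0.12, adjusted p = 0.0187). Cpt1a was at 45.3, 36.8, 31.6 and 19.9 CPM (log2 2.25 ± 0.22, adjusted p = 3.29e-05). Beside these, Lyz2 read 11.2, 35.9, 21.3 and 42.1 CPM in lymphatic 1 to 4 and Trbc2 2.91, 4.63, 5.99 and 18.8 CPM, more than in hematogenous libraries on average; their part in the differences was not tested.

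**Figure D5:**
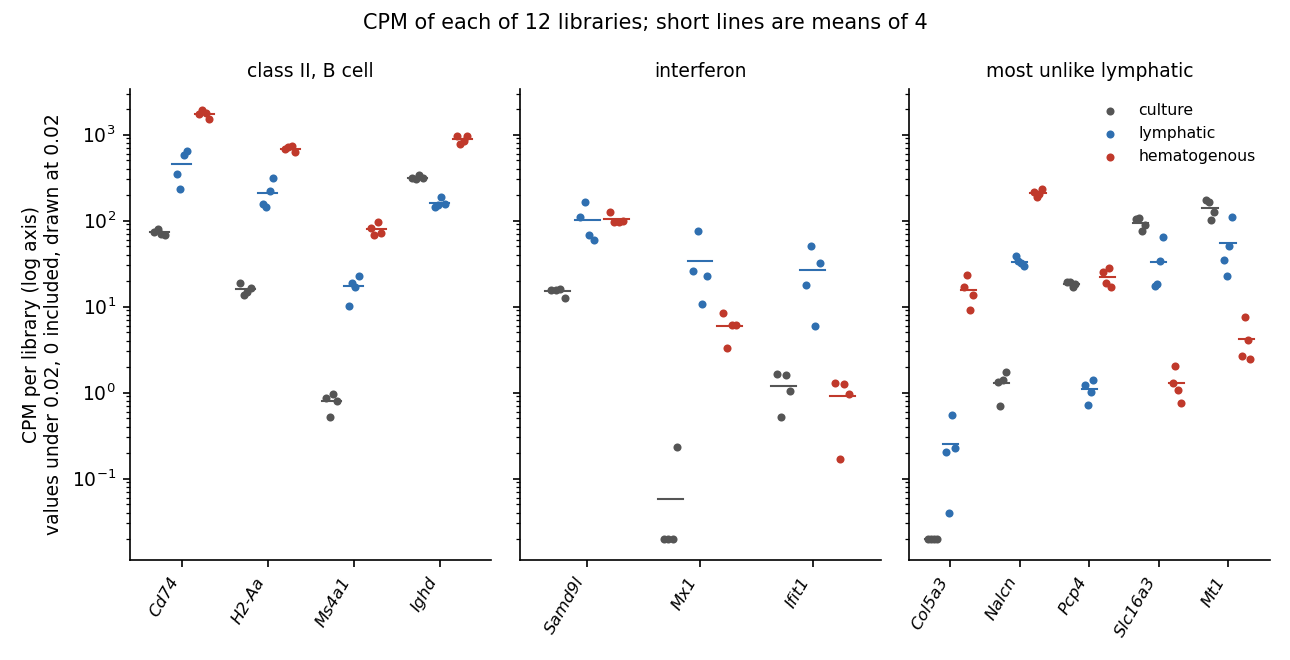
CPM on a log axis in each culture (grey), lymphatic (blue) and hematogenous (red) library, with short lines at group means, for genes of class II and the B cell surface, for interferon genes, and for genes with the largest differences between the lymph node groups; values under 0.02 CPM are drawn at 0.02. Cd74, H2-Aa and Ms4a1 rise from culture over lymphatic to hematogenous libraries, whereas Mx1 and Ifit1 are highest in lymphatic libraries.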

How the data were processed

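Libraries of 12 samples were used: 4 culture, 4 lymphatic and 4 hematogenous. Raw counts per gene were deposited by the authors, 1 table per library. The submitters' processing notes name FastQC 0.11.9, Trimmomatic 0.39, HISAT2 2.1.0, HTSeq 2.0.2 and GRCm39; settings are not given in the sources used here. The 5 summary lines that name no gene, which held 30.3% to 36.5% of the reads of a file, were left out. Of 56748 gene IDs 91.8% matched a symbol in the name table; genes were used by ID where a symbol was shared. Counts of members refer to 64 gene lists (54 of pathways and families and 10 of cell markers), which, like the comparison, were chosen with earlier results of these data known.

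The fit used edgeR 4.0.16 (R 4.3.3) with TMM factors, filterByExpr and group as the only term over all 12 libraries, which left 13535 genes, 9 residual degrees of freedom and a common dispersion of 0.0457. P-values were adjusted over all tested genes and called under 0.05. The SE is the absolute log2 fold change divided by the root of F and is approximate. CPM values were computed by edgeR from the counts and the TMM factors. Where a group held 0 counts, a fold is a lower bound against a floor of 3 counts over the group; with 1 to 3 counts a ratio of depth-scaled counts is given with a 95% counting interval. Intervals and floors cover counting error only. No molecular identifiers are mentioned in the sources used here, and near-identical gene copies can exchange or lose reads.

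Genes were named by rule: the 15 largest rises and falls with a mean of 10 CPM or more in the higher group and groups that do not overlap, the 8 largest gains and losses in CPM, up to 5 called members per list (any member of lists with at most 20 tested genes), the 10 largest differences each way between lymph node groups, and Myc. Named outside the rule, with values known, were Cd79a, Trbc2, B2m, Cd53, Cd72, Iglc2, Iglc3, Mx1, Isg15, Rsad2, Ebp, Ggps1, Slc16a1, Hk1, Slc2a3, Pfkfb3, Ogdh, Mki67, Trp53, Ctss, Tgfb1, Tgfbr2 and Fos. Results on some genes are not reported here. Promoters are from RefSeq for GRCm38.p6, an older build than that of the counts, and were matched by symbol for 9198 of 13535 tested genes.

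Alternatives were RLE, upper quartile and no composition factors, no filter, at least 10 counts in 8 libraries, DESeq2 1.42.0, limma-voom (limma 3.58.1), the 2 groups alone, a replicate block, a fold threshold (glmTreat at log2 1) and each library left out; leaving out lymphatic replicate 4 in the comparison with culture was added after seeing the data. Tables were handled in Python 3.11.15 with pandas 2.3.3.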

Additional observations from a re-analysis of the deposited data

Results flagged for a closer look

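Of 120 groups of 4 libraries tested for a value far from the other 3, 11 were picked out, where chance gives about 1 in 20. That rate does not apply to Lama5 and Mx1 below, because any count is picked out when the other 3 libraries hold 0. Hematogenous 4 stood low for the class II coactivator Ciita, at 101.6 CPM against 131.0 to 136.9 in the others, and for the myeloid gene Lyz2, at 7.028 against 12.85 to 13.99 CPM, and high for the complement regulator Cd55, at 100.5 against 90.48 to 92.09 CPM. Hematogenous 1 was low for the ferritin chain Fth1 (457.5 against 568.9 to 585.0 CPM) and high for the interferon gene Samd9l (124.2 against 94.95 to 97.63 CPM), and it held the single Lama5 count of the group, 0.08028 CPM. Hematogenous 2 was high for the repressor Bcl6 (8.502 against 3.934 to 4.369 CPM) and hematogenous 3 low for the integrin chain Itgal (32.19 against 39.32 to 40.24 CPM). Culture 4 was low for the egress receptor S1pr1 (74.56 against 78.64 to 79.21 CPM) and for Samd9l (12.68 against 15.63 to 16.02 CPM), and it held the Mx1 counts of culture, at 0.2305 CPM.

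The change from culture differed between the hematogenous and lymphatic groups for 36 of the 50 genes given by library, by edgeR's test of the difference (adjusted p up to 0.0386, for Lyz2). Of all tested genes 22.3% were called in this comparison. The 50 genes were chosen with results known, some of them for this same difference, so a higher share follows from the choice. Differences are log2, hematogenous minus lymphatic. Class II and B cell surface genes were higher in hematogenous libraries, Cd74 by 1.938, H2-Aa by 1.718, Ciita by 1.853, Ms4a1 by 2.195 and Ighd by 2.462. So were the integrin, exchange factor, channel and collagen genes, Itgal by 1.02, Rasgrp1 by 1.537, Nalcn by 2.663 and Col5a3 by 6.078. In lipid metabolism Abca1 and Cpt1a were higher and the others lower, Abca1 by 1.341, Cpt1a by 2.252, Hmgcs1 by −0.4459, Insig1 by −0.7788 and Fads2 by −3.36. Glycolytic and hypoxia genes were lower, Slc16a3 by −4.608, Aldoa by −1.632, Ldha by −1.029 and Bnip3 by −2.247. The metal genes were lower too, Fth1 by −0.524 and Mt1 by −3.649. Targets of the glucocorticoid receptor were higher, Tsc22d3 by 1.63 and Fkbp5 by 1.924. Interferon genes were lower, Mx1 by −2.496 and Ifit1 by −4.866. Among signalling genes and regulators Egr2 was higher and the others lower, Egr2 by 1.016, Tgfb2 by −2.361, Jag2 by −2.869, Kdm5b by −1.926 and Fosb by −1.367. Fosl2 was higher by 2.809, Lgals1 by 0.7744 and Pecam1 by 0.6353. Listed myeloid, T cell and NK cell markers were lower, Lyz2 by −1.215, Trbc2 by −2.651 and Klrb1c by −1.544. Pcp4, which binds calmodulin, was higher by 4.37. Day 18 and day 11 go with these groups, and route and day cannot be told apart.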

How the results depend on the processing

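Alternatives were compared by the number of genes called, higher and lower. For hematogenous against culture, 3760 genes became 6344 (3150 and 3194) with the 8 libraries alone, of which 3575 were among the 3760, and 908 (467 and 441) with glmTreat at a log2 fold change of 1. Leaving out a library gave 3125 to 5930 genes (1545 to 2995 higher and 1580 to 2935 lower); the highest, without lymphatic replicate 4, was chosen after seeing the data. The other settings, apart from the replicate block given below, gave 3388 to 4129 genes. For hematogenous against lymphatic, 3012 became 1734 (824 and 910) with the 8 lymph node libraries alone, 209 (94 and 115) with glmTreat, and 2002 to 4333 (1072 to 2253 higher and 930 to 2080 lower) with a library left out, the lowest without hematogenous replicate 1. The cause of these shifts was not tested, except that glmTreat asks for a larger fold by its construction. As a replicate block the shared numbers gave 3341 genes (1645 higher and 1696 lower) against culture; deviations of same-numbered libraries from their group means correlated at −0.181 to 0.0919 and not every library correlated best with its own number, so the numbers were not taken as pairs. Against culture, no named gene that was called in the main fit or in an alternative turned its direction between them, glmTreat aside. Sign changes of genes called in neither were not counted. RLE moved none of 266 calls of named genes, limma-voom lost 9, no filter lost 16 and gained 2, the replicate block lost 21, and leaving out a library of either group lost 12 to 25. The 50 genes given by library kept their side of the threshold against culture in each fit that tested them, glmTreat aside. Several list medians lay nearer 0 over all members with a count on the log2(CPM + 1) scale. That of hypoxia genes went from −1.22 to −0.88 and that of type I interferon genes from 1.97 to 1.36. The Ly6 and Schlafen median went from 5.06 to 1.12 and that of MHC class II from 3.84 to 3.26. Cholesterol synthesis moved little, from −2.23 to −2.18. Depth, at 5286775 counts in the shallowest hematogenous library, limits genes of few counts, where only bounds or count ratios are given.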

Other observations

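The lists of nucleotide synthesis, galectins and complement regulators were not counted in the account above, though members such as Lgals9, Lgals1 and Cd55 were named there. Of 28 genes of the pentose phosphate pathway and nucleotide synthesis 5 were called higher in hematogenous libraries and 2 lower, against 13.9% of all genes in each direction; the higher count was 9 with the 8 libraries alone. Impdh1, an enzyme of guanine nucleotide synthesis, read 56.1, 62.9, 48.6 and 52.4 CPM in culture and 24.7, 32.6, 19.7 and 20.3 CPM in hematogenous 1 to 4 (log2 −1.17 ± 0.17, adjusted p = 1.58e-04). The groups did not overlap. Prps2, which makes the ribose phosphate donor, went the other way from 110.2 ± 3.19 to 179 ± 11.9 CPM (log2 0.698 ± 0.12, adjusted p = 4.20e-04). In one-carbon metabolism 1 of 11 tested genes was called higher, the mitochondrial enzyme Mthfd2 (109 to 151 CPM, log2 0.47 ± 0.11), and 1 lower. Of 6 tested galectins 5 were called higher and 0 lower. Lgals1 read 84.9, 70.4, 78.1 and 67.9 CPM in culture and 157, 146, 154 and 148 CPM in hematogenous libraries (log2 1.002 ± 0.24, adjusted p = 0.006700). Of 15 genes of complement and phagocytosis signals only 7 were tested. Of these 4 were called higher and 0 lower, against 13.9% of all genes in each direction. The median log2 fold change was 0.815 over the tested members. It was 0.145 over the 14 members with a count on the log2(CPM + 1) scale. Members could pass the filter through the group where they are high. Cd55, which speeds the decay of complement convertases, read 50.7, 46.2, 59.98 and 55.3 CPM in culture and 90.5, 92.1, 90.99 and 100.5 CPM in hematogenous libraries (log2 0.82 ± 0.11, adjusted p = 4.91e-05).

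Genes listed for other cell types were in part higher in the cultured cells. Hbb-bt, a beta globin, read 16.3, 29.7, 11.4 and 11.3 CPM in culture and 1.53, 1.35, 3.03 and 1.14 CPM in hematogenous libraries (log2 −3.24 ± 0.59, adjusted p = 8.70e-04). Pecam1, which encodes CD31 and is listed for endothelium, read 75.4, 76.3, 78.6 and 72.7 CPM in culture and 136, 162, 153 and 163 CPM in hematogenous libraries (log2 1.02 ± 0.12, adjusted p = 2.27e-05), and it was measured in all 4 culture libraries.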
